A study of Mus musculus with 24 samples.

Results

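The cluster of miR-322, miR-503, miR-351, miR-542, and miR-450 is a group of miRNA hairpins on the mouse X chromosome. Of the 1531 mature mouse miRNAs in the count tables, 7 were described here: mmu-miR-322-5p, mmu-miR-322-3p, mmu-miR-503-5p, mmu-miR-351-5p, mmu-miR-351-3p, mmu-miR-542-3p, and mmu-miR-450a-5p (the prefix mmu, for mouse, is left out from here on). The cluster was selected on measured values, because miR-351-3p was among the miRNAs lower after hypoxic-ischemic brain injury (HIBI) in the cerebellum. The question asked of the data was whether the other 6 members followed miR-351-3p. Every comparison of HIBI with sham in the cerebellum is therefore given as a description, with no test.

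A miRNA hairpin is cut into a duplex, and either strand, named the 5p or the 3p arm, can be loaded into an Argonaute protein. Bases 2 to 8 of the loaded strand, the seed, pair with target mRNAs. miR-322-5p and miR-503-5p belong to the extended miR-15/16 group, known for targeting mRNAs of the cell cycle, and miR-322 (miR-424 in humans) and miR-503 have been studied in muscle differentiation. miR-351-5p carries the seed of the miR-125 family, the mammalian relatives of lin-4, which are abundant in the brain.

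CD1 mouse pups of both sexes were studied at postnatal day 9, with 4 pups in each group. In the HIBI group, the right common carotid artery was cauterized, and after a 2 h recovery the pups spent 30 min at 8% oxygen. Sham pups had the anesthesia and neck dissection with no ligation and no hypoxia, so that effects of ligation and of hypoxia cannot be told apart. The right cerebellum, striatum/thalamus, and cortex were taken from each pup 30 min after injury and sequenced separately, giving 24 miRNA-Seq libraries. The HIBI group was pups 1, 4, 5, and 7, and the sham group was pups 2, 3, 6, and 8. Each library came from a whole dissected region, so that fewer cells of a type and less miRNA per cell cannot be told apart.

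The mature sequences are shown with the seed in capitals, because the seeds decide which members could share targets and the base composition returns in the comparisons below. They were taken from RefSeq on GRCm38.p6.
miR-322-5p: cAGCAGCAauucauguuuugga
miR-503-5p: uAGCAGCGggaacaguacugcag
miR-322-3p: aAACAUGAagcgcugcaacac
miR-351-5p: uCCCUGAGgagcccuuugagccug
miR-351-3p: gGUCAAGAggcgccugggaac
miR-542-3p: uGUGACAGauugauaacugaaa
miR-450a-5p: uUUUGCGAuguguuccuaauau
The seed of miR-322-5p, AGCAGCA, was shared with miR-15a-5p, miR-15b-5p, miR-16-5p, miR-195a-5p, and miR-497a-5p. The seed of miR-351-5p, CCCUGAG, was shared with miR-125a-5p, miR-125b-5p, miR-6367, and miR-6394. The seeds of the other 5 members were each held by 1 listed miRNA. Seeds were compared only among the 1291 of 1531 listed miRNAs with a RefSeq sequence. Thus, the 2 arms of a hairpin and the neighbouring hairpins carried 7 different seeds. No member shared more than 11 consecutive bases with another mature miRNA in RefSeq. The share of G and C in the sequence was 31.8% in miR-450a-5p and miR-542-3p, 40.9% in miR-322-5p, 47.6% in miR-322-3p, 56.5% in miR-503-5p, 62.5% in miR-351-5p, and 66.7% in miR-351-3p. The members therefore spanned a wide range of base composition, with both miR-351 arms at its upper end.

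The 7 hairpins of the cluster lay on the minus strand of chromosome X between bases 53047997 and 53054349 of GRCm38, a span of 6353 bases. In transcript order they were Mir322, Mir503, Mir351, Mir542, Mir450-2, Mir450-1, and Mir450b. Mir351, Mir503, and Mir322 lay within the RefSeq span of the long noncoding RNA gene C430049B03Rik (X, 53053112 to 53057190), and the other hairpins lay in no other annotated gene. miR-450a-5p is made from both Mir450-1 and Mir450-2, whose reads cannot be separated.

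Between 1254185 and 3406624 counts per library fell on mouse miRNAs. The brain miRNAs miR-124-3p, miR-9-5p, and miR-128-3p were high in every library, with a summed level of 78900 to 223731 counts per 1000000 counts (CPM). The liver miRNA miR-122-5p reached at most 36.0 CPM. Endothelial (2 of 2 listed), mural cell and fibroblast (5 of 5), choroid plexus and ciliated cell (5 of 5), erythrocyte (3 of 3), and skeletal muscle (3 of 3) miRNAs were also listed, with summed levels of 974 to 4830, 1837 to 6041, 1883 to 10184, 454 to 1420, and 28.4 to 651 CPM in the 24 libraries. None of these miRNAs is exclusive to its cell type.

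The cluster was dominated by miR-351-5p and miR-322-3p. Of the 76802 reads on the 7 members, 67.5% were miR-351-5p and 27.0% miR-322-3p. miR-322-5p held 2.49%, miR-503-5p 1.28%, miR-351-3p 0.999%, miR-450a-5p 0.665%, and miR-542-3p 0.15%. The 7 members together made up 0.110% to 0.217% of the counts in a library. The arm with the most reads thus differed between hairpins, being 5p for miR-351 and 3p for miR-322.

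The 2 most abundant members kept their order in every library, whereas the lower members exchanged places in some. Levels are given as CPM after normalization by the trimmed mean of M values (TMM), which corrects for library size and composition. Mature miRNAs are of nearly equal length (21 to 24 bases here), so levels were not divided by length. How well each sequence is captured in a library was not measured, so the order is one of reads and not of molecules. miR-351-5p was at 997 ± 271 CPM (SD, n = 24 libraries) and exceeded miR-322-3p, at 378 ± 99.7 CPM, in 24 of 24 libraries. miR-322-3p exceeded miR-322-5p, at 34.3 ± 14.5 CPM, in 24 of 24 libraries, and miR-322-5p exceeded miR-503-5p, at 18.3 ± 7.41 CPM, in 21. miR-503-5p exceeded miR-351-3p, at 15.1 ± 7.43 CPM, in 16 libraries, and miR-351-3p exceeded miR-450a-5p, at 9.19 ± 8.06 CPM, in 15. Over all 24 libraries, these neighbours did not differ beyond their spread. By region, miR-503-5p and miR-351-3p averaged 26.3 and 15.4 CPM in the cerebellum and 15.6 and 9.63 CPM in the cortex. In the striatum/thalamus their means had the other order, at 13.0 and 20.1 CPM. miR-542-3p was lowest, at 2.28 ± 2.40 CPM, and had no read in 8 libraries.

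**Figure D1:**
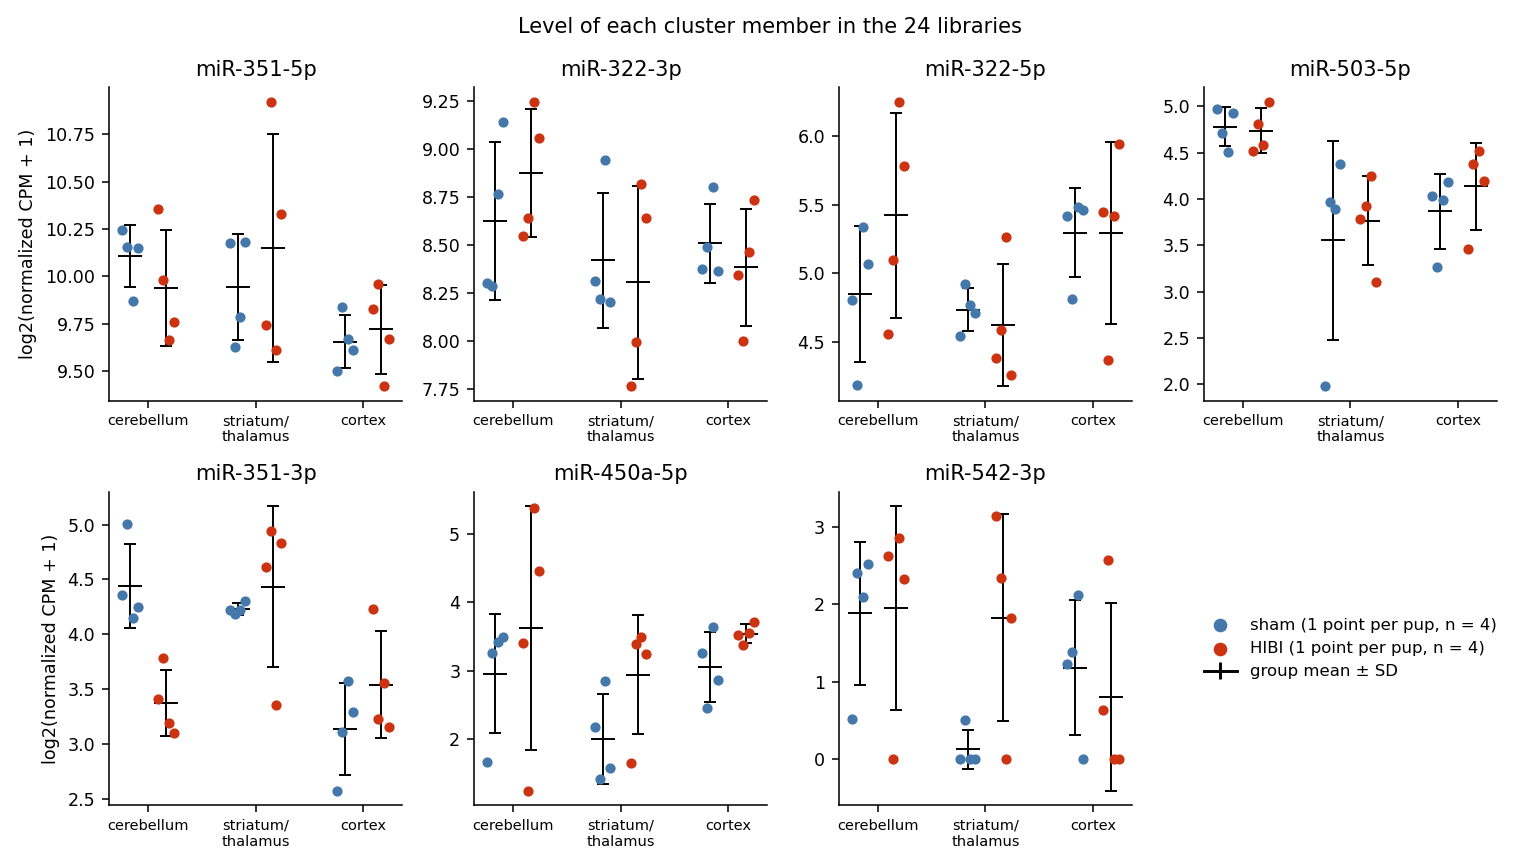
Level of each of the 7 members as log2(TMM-normalized CPM + 1) in the 24 libraries, 1 point per pup, with the mean ± SD of each group of 4 pups and a separate y axis for each member. Only the miR-351-3p points of the cerebellum separate HIBI (7.59 to 12.8 CPM) from sham (16.7 to 31.1 CPM).

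miR-322-5p and miR-351-5p, whose seeds are shared with other listed miRNAs, were a small part of the reads with their seed. Each other member was the only one with its seed among listed miRNAs with a RefSeq sequence. Reads of listed miRNAs without such a sequence did not enter the shares. miR-322-5p held 0.118% to 1.06% of the reads carrying its seed. Its mean share was 0.237% ± 0.12 (SD, n = 8) in the cerebellum, 0.698% ± 0.21 in the cortex, and 0.825% ± 0.173 in the striatum/thalamus. miR-351-5p held 0.332% to 0.837% of the reads carrying the miR-125 seed, with 0.707% ± 0.0711 in the cerebellum, 0.398% ± 0.0265 in the cortex, and 0.394% ± 0.0418 in the striatum/thalamus. In the cerebellum, the share of miR-322-5p was lowest of the 3 regions and that of miR-351-5p was highest, and the lowest cerebellar value of miR-351-5p (0.610%) was above the highest value of the other regions (0.457%). The mean levels did not have these orders. In the cerebellum, cortex, and striatum/thalamus, miR-322-5p was at 37.6, 40.1, and 25.2 CPM, and miR-351-5p at 1053, 830, and 1107 CPM. A share also depends on the reads of the other miRNAs with the seed. No test was made of these shares.

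In the cerebellum, miR-351-3p was lower in HIBI, and the other members did not share that pattern. The 4 sham libraries held 45, 58, 36, and 46 reads of miR-351-3p (pups 2, 3, 6, and 8) and the 4 HIBI libraries 15, 28, 21, and 17 (pups 1, 4, 5, and 7). All 4 HIBI libraries lay below all 4 sham libraries, also after scaling (7.59 to 12.8 against 16.7 to 31.1 CPM). Of the 21 pairs of a member and a region, this was the only 1 without overlap. The share of all tested miRNAs whose HIBI and sham libraries did not overlap was 3.92% for the cerebellum, against 1.83% for striatum/thalamus libraries and 3.41% for cortex libraries, and nothing is read from the cerebellar count. The log2 fold change was -1.16 (SE 0.37). The selection rested on the criteria of the study, an unadjusted p-value under 0.05 together with a change of more than 1.5-fold, which 1 of the 6 members in the fit and 7.83% of its 434 miRNAs met. Nothing is read from that count, since this contrast chose the cluster.

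The values of its partner arm lay closer together. miR-351-5p had 2800, 2127, 2018, and 2896 reads in the sham libraries and 2037, 2217, 2093, and 1938 in the HIBI libraries. These ranges overlapped once scaled (936 to 1215 and 812 to 1310 CPM), and the log2 fold change was -0.12 (SE 0.21). miR-503-5p, the neighbour of miR-351 on the transcript, overlapped between the groups, at 26.7 ± 3.96 CPM in sham and 26.0 ± 4.67 CPM in HIBI (SD, n = 4 each), with a log2 fold change of -0.015 (SE 0.28).

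The remaining members pointed upward with large errors. miR-322-3p was at 406 ± 119 CPM in sham and 477 ± 110 CPM in HIBI, a log2 fold change of 0.26 (SE 0.25). miR-322-5p was at 26.9, 17.2, 39.4, and 32.6 CPM in sham and 22.5, 33.3, 75.2, and 54.0 CPM in HIBI, a log2 fold change of 0.70 (SE 0.39). miR-450a-5p had 5, 16, 21, and 26 reads in sham and 15, 3, 105, and 47 reads in HIBI, a log2 fold change of 1.28 (SE 0.75). It passed the filter of an average above 10 CPM through the HIBI libraries. Its mean was 18.2 CPM in HIBI, with pup 5 at 40.7 CPM, and 7.67 CPM in sham. For both miR-322-5p and miR-450a-5p, HIBI pups 5 and 7 were highest and the groups overlapped. miR-542-3p did not pass the filter of an average above 10 CPM, with 28 reads in the sham libraries and 33 in the HIBI libraries.

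Among the 6 members in the fit, the order of these cerebellar values was the order of base composition. miR-542-3p, at 31.8% GC, was not in the fit. The ratio of its pooled read rates, HIBI against sham, was 1.39 (exact 95% interval 0.81 to 2.4, counting error only). From the lowest to the highest share of G and C, the log2 fold changes of the 6 members fell from 1.28 through 0.70, 0.26, -0.015, and -0.12 to -1.16. The same trend was present over all miRNAs: among the 368 of 434 tested miRNAs (84.8%) with a RefSeq sequence, the median log2 fold change was 0.40 at or under 40% GC (56 miRNAs), 0.14 from 40% to 50% (161), -0.0062 from 50% to 60% (86), and -0.059 above 60% (65). Across these miRNAs, which are not independent replicates, Pearson's r between GC content and the log2 fold change was -0.23. With a smooth GC trend removed from each library, a step added after the data were seen, miR-351-3p was at -1.06 (SE 0.32), miR-450a-5p at 0.64 (SE 0.60), miR-322-5p at 0.44 (SE 0.32), miR-322-3p at 0.18 (SE 0.22), miR-503-5p at 0.068 (SE 0.28), and miR-351-5p at -0.063 (SE 0.16). With the correction, miR-351-3p thus went from -1.16 to -1.06, miR-450a-5p from 1.28 to 0.64, and miR-322-5p from 0.70 to 0.44. miR-351-3p was selected for its value in this contrast, so nothing is read from these changes. The part of base composition in the cerebellar values was not tested.

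**Figure D2:**
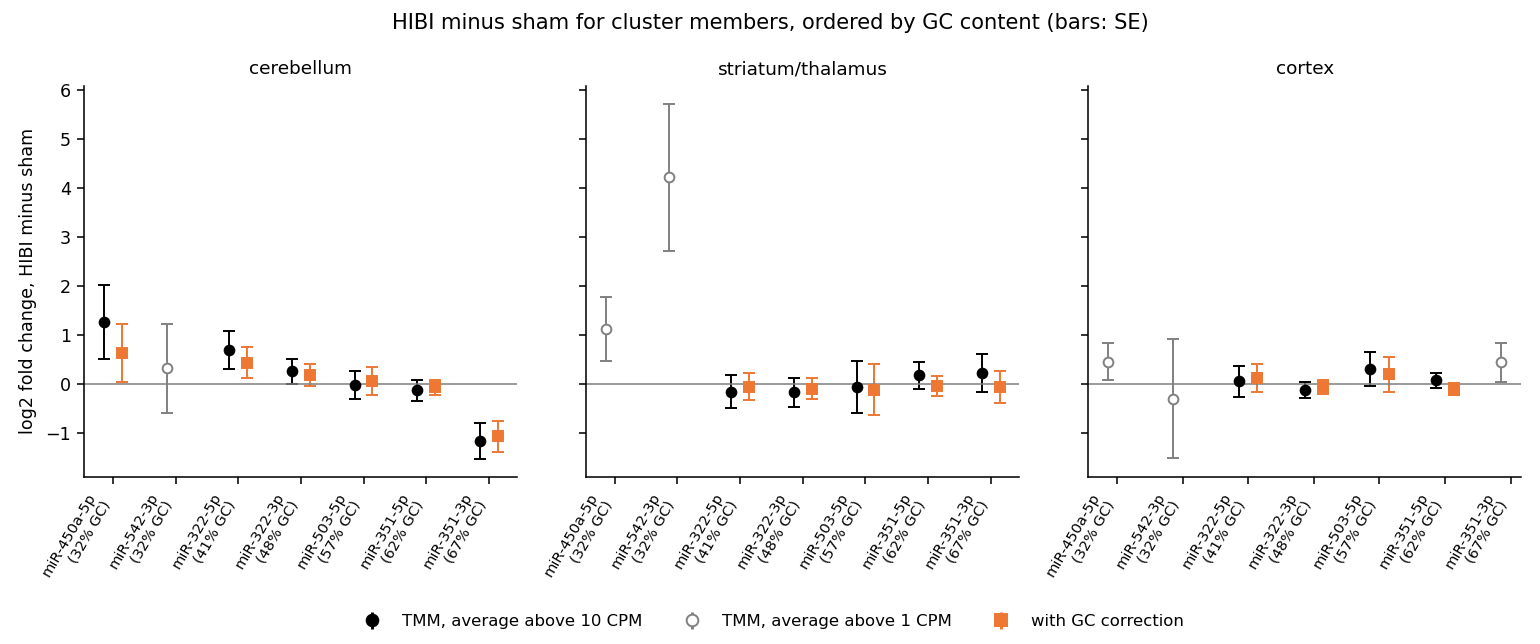
Log2 fold change of HIBI against sham in each region (y axis, bars are the SE of the fit, 4 pups per group), with members ordered from left to right by GC content. Black circles are the TMM fits, orange squares the fits with the GC trend removed, and open circles members that passed only a filter of 1 CPM. miR-351-3p lies at -1.16 in the cerebellum and at 0.23 and 0.45 in the other regions.

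Levels of erythrocyte and muscle miRNAs in the cerebellum are given beside these values. The summed level of the 3 erythrocyte miRNAs was 735 to 1325 CPM in the sham cerebellum and 579 to 787 CPM in the HIBI cerebellum. miR-486a-5p had 515 to 1132 CPM in sham and 332 to 591 CPM in HIBI. miR-451a had 149 to 520 CPM in sham and 129 to 315 CPM in HIBI, and miR-144-3p was at or under 2.25 CPM in all 24 libraries and without a read in 12. These ranges overlapped. The summed level of the 3 muscle miRNAs was 447 to 602 CPM in sham, within the 345 to 651 CPM of HIBI. Of these miRNAs, miR-206-3p had 360 to 546 CPM in sham and 254 to 346 CPM in HIBI, with no overlap, whereas miR-1a-3p had 45.1 to 127 CPM in sham and 76.5 to 374 CPM in HIBI, and miR-133a-3p 6.67 to 14.8 CPM in sham and 5.43 to 14.8 CPM in HIBI. Their part in the result was not tested.

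In the striatum/thalamus, none of the 5 members tested met the criteria, against 2.75% of the 436 miRNAs tested (edgeR, DESeq2, and the edgeR exact test each called 0 members). miR-351-3p had 30, 41, 37, and 38 reads in sham (pups 2, 3, 6, and 8) and 33, 44, 19, and 65 in HIBI (pups 1, 4, 5, and 7). The sham libraries were tightly grouped, at 17.1 to 18.8 CPM, and the HIBI libraries lay on both sides of them, at 23.4, 29.8, 9.23, and 27.4 CPM. The log2 fold change was 0.23 (SE 0.38, unadjusted p = 0.555, adjusted p = 0.980). It was -0.051 after the GC correction, and that of miR-351-5p went from 0.18 (SE 0.28) to -0.035, so neither arm had a stable direction.

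For the other members the fold changes were small beside their errors. miR-322-3p was at -0.16 (SE 0.29), miR-322-5p at -0.15 (SE 0.33), and miR-503-5p at -0.062 (SE 0.53). The last was positive, at 0.0077, with library size scaling alone. The median of the 5 members was -0.062 and that of all miRNAs tested -0.029.

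miR-542-3p was seen almost only in HIBI libraries of the striatum/thalamus, at very low counts. The sham libraries held 0, 1, 0, and 0 reads and the HIBI libraries 11, 6, 0, and 6. HIBI pup 5 had no read, so the groups overlapped. The ratio of the pooled read rates, 23 reads against 1, was 25.3 with an exact 95% interval of 4.11 to 1043, which covers counting error only. A two-sided exact permutation test over the pups gave p = 0.143 (adjusted p = 0.667 over 14 such tests, added after the data were seen). With a filter of 1 CPM in place of 10, under which 2.57% of 740 miRNAs met the criteria, miR-542-3p met them with a log2 fold change of 4.22 (SE 1.51, unadjusted p = 0.0147, adjusted p = 0.996). That value depends on how the fit treats the empty libraries. The 5p arm of the same hairpin did not have this pattern, with 7, 6, 12, and 4 reads in sham and 0, 0, 5, and 15 in HIBI. In the cortex, miR-542-3p had 19 reads in the sham libraries and 11 in the HIBI libraries, 10 of the latter from pup 4.

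miR-450a-5p also did not pass the filter in the striatum/thalamus. It had 6, 4, 13, and 4 reads in sham and 3, 14, 21, and 20 in HIBI, with a log2 fold change of 1.13 (SE 0.66, unadjusted p = 0.111) under the filter of 1 CPM. The groups overlapped through HIBI pup 1, the lowest of its group.

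In the cortex, none of the 4 members tested met the criteria, against 3.41% of the 410 miRNAs tested (edgeR, DESeq2, and the edgeR exact test each called 0 members). The log2 fold changes were 0.31 (SE 0.34) for miR-503-5p, 0.079 (SE 0.15) for miR-351-5p, 0.065 (SE 0.32) for miR-322-5p, and -0.11 (SE 0.16) for miR-322-3p, with unadjusted p-values of 0.380 to 0.841. That of miR-351-5p was -0.093 after the GC correction. All 4 were smaller than the error of the fit, and the HIBI and sham libraries of each member overlapped.

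miR-351-3p averaged 9.43 CPM in the cortex, just under the filter. It had 11, 24, 36, and 21 reads in sham and 32, 17, 32, and 21 in HIBI, and its log2 fold change under the filter of 1 CPM was 0.45 (SE 0.39, unadjusted p = 0.270). miR-450a-5p had 19, 14, 38, and 15 reads in sham and 19, 19, 32, and 32 in HIBI, a log2 fold change of 0.46 (SE 0.38, unadjusted p = 0.245). The lower level of miR-351-3p seen in the HIBI cerebellum was thus not seen in the cortex or striatum/thalamus. The injury effects of the cortex and of the striatum/thalamus did not pass the test for a difference in any of the 5 members (edgeR interaction, adjusted p = 0.991 each, differences of -0.21 to 0.29 with SE 0.32 to 0.56). Of all 435 miRNAs tested, 0% passed it with edgeR or DESeq2, and 7 had an unadjusted p-value under 0.05 with edgeR. The effect in the cerebellum was not tested against the other regions because it chose the cluster.

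The members were then compared between regions. For each pair of regions, HIBI and sham were averaged with equal weight, and an adjusted p-value under 0.05 was called. By this rule 64.8% of 435 miRNAs differed between cortex and cerebellum, 69.9% between striatum/thalamus and cerebellum, and 53.8% between cortex and striatum/thalamus, so a called member is the common case. The members called were 1 of 5, 1 of 5, and 3 of 5. With the pup as a block they were 2, 2, and 3, against 284, 318, and 249 of all 435 miRNAs.

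miR-503-5p was higher in the cerebellum than in both other regions. Its level was 26.3 ± 4.03 CPM in the cerebellum (SD, n = 8), with a range of 21.8 to 32.2, against 15.6 ± 4.51 CPM in the cortex (8.62 to 21.8) and 13.0 ± 5.43 CPM in the striatum/thalamus (2.93 to 19.8). Every cerebellar library lay above every striatum/thalamus library, and the lowest cerebellar library, at 21.80 CPM, was just under the highest cortical one, at 21.83 CPM. The log2 difference was -0.76 for cortex minus cerebellum (SE 0.27, adjusted p = 0.0173) and -1.02 for striatum/thalamus minus cerebellum (SE 0.28, adjusted p = 0.00224). After the GC correction these were -0.89 and -1.32. Without pup 3 the first was -0.65 (SE 0.30) and was no longer called. Cortex and striatum/thalamus did not differ beyond the error, at 0.25 (SE 0.28, adjusted p = 0.452).

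Skeletal muscle miRNAs were also highest in the cerebellum. The summed level of the 3 muscle miRNAs was 345 to 651 CPM in the cerebellum, 39.3 to 141 CPM in the striatum/thalamus, and 28.4 to 64.4 CPM in the cortex. Most of it was miR-206-3p, at 254 to 546 CPM in the cerebellum. miR-1a-3p was at 45.1 to 374 CPM there and miR-133a-3p at 5.43 to 14.8 CPM. In the cerebellum, striatum/thalamus, and cortex, the median sum of mural cell and fibroblast miRNAs was 3582, 2200, and 3280 CPM. In that order it was 3266, 1494, and 3170 CPM for endothelial and 3692, 2391, and 2236 CPM for choroid plexus and ciliated cell miRNAs. For erythrocyte miRNAs it was 760.8, 800.6, and 542.5 CPM. The part of any of these miRNAs in the regional difference of miR-503-5p was not tested.

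miR-351-3p was lower in the cortex than in the striatum/thalamus. It was at 9.63 ± 3.77 CPM in the cortex (4.95 to 17.7) and 20.1 ± 6.55 CPM in the striatum/thalamus (9.23 to 29.8), a log2 difference of -1.07 (SE 0.26, adjusted p = 0.00131). miR-351-5p had the same sign, with 830 ± 104 CPM in the cortex and 1107 ± 388 CPM in the striatum/thalamus, a log2 difference of -0.41 (SE 0.16, adjusted p = 0.0368). miR-322-5p had the opposite sign, with 40.1 ± 12.2 CPM in the cortex and 25.2 ± 6.06 CPM in the striatum/thalamus, a log2 difference of 0.67 (SE 0.26, adjusted p = 0.0322). All 3 pairs of ranges overlapped. The call of miR-351-3p held whichever of the 8 pups was removed. miR-322-5p was not called without pup 1, 2, 6, 7, or 8 (0.47 to 0.64), nor miR-351-5p without pup 2, 4, 6, 7, or 8 (-0.44 to -0.29).

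These 3 calls were not kept when a trend with base composition was removed. Over the 371 tested miRNAs with a sequence, the median log2 difference of cortex minus striatum/thalamus was 0.45 at or under 40% GC and -0.47 above 60%. With the GC trend removed, miR-351-3p was at -0.51 (SE 0.22, adjusted p = 0.0572), miR-351-5p at 0.016 (SE 0.11, adjusted p = 0.918), and miR-322-5p at 0.34 (SE 0.20, adjusted p = 0.163). None of the 5 members was called, against 199 of all 371 miRNAs. With the pup as a block as well, these 3 values were -0.51, 0.028, and 0.31. No member was called, against 207 of 371 miRNAs. Whether the GC trend is technical or a difference in expression between the regions was not tested.

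Against the cerebellum, the miR-351 and miR-322 arms had values whose call or sign changed with the scaling. For cortex minus cerebellum, miR-351-3p was at -0.58 (SE 0.26, adjusted p = 0.0523) and miR-351-5p at -0.34 (SE 0.16, adjusted p = 0.0671; 0.0423 with the pup as a block). After the GC correction both were called, at -0.81 (adjusted p = 0.00290) and -0.50 (adjusted p = 0.000333). The median of all miRNAs in this contrast was itself at -0.16. For striatum/thalamus minus cerebellum, miR-322-3p was at -0.37 (SE 0.18, adjusted p = 0.0661; -0.39 and 0.0153 with the pup as a block), and miR-322-5p at -0.54 (SE 0.26, adjusted p = 0.0649). miR-351-5p was at 0.066 (SE 0.16) and at -0.52 (SE 0.11, adjusted p = 0.000187) after the GC correction, a change of sign. miR-351-3p was at 0.49 (SE 0.25, adjusted p = 0.0923), and at -0.30 after the GC correction and -0.21 in sham libraries alone. In sham libraries alone, the cortex minus cerebellum value of miR-351-3p was -1.45 (SE 0.33). Sham-only values of miR-351-3p against the cerebellum use sham cerebellum libraries that its selection used, so they are descriptions.

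Under the filter of 1 CPM, miR-450a-5p was lower in the striatum/thalamus than in the cerebellum, with a log2 difference of -1.29 (SE 0.47, adjusted p = 0.0229). Its mean in the cerebellum, 12.9 CPM, included HIBI pup 5 at 40.7 CPM. miR-542-3p was at -2.26 (SE 0.96, adjusted p = 0.0502).

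**Figure D3:**
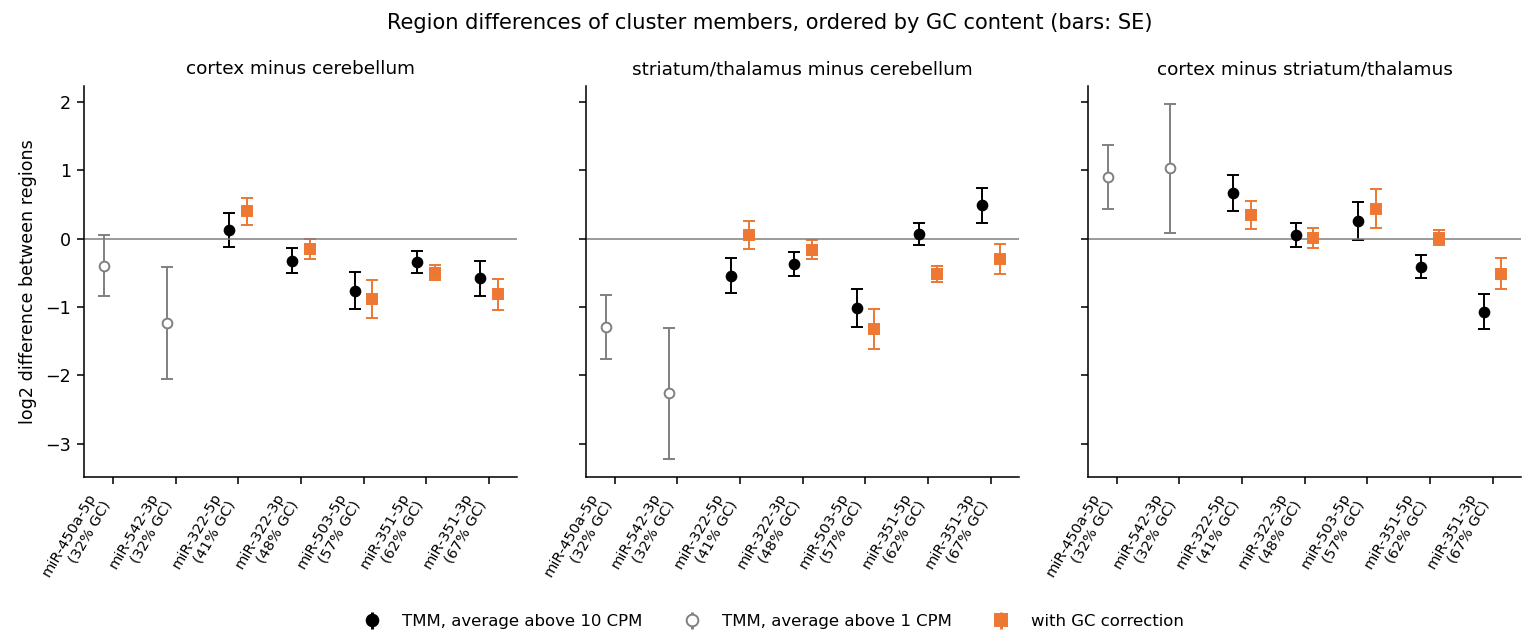
Log2 difference between regions for each member, averaged over HIBI and sham (y axis, bars are the SE, 8 libraries per region), ordered by GC content. Symbols as in the plot of injury differences. miR-503-5p lies at -0.76 and -1.02 against the cerebellum and is at -0.89 and -1.32 with the GC trend removed, whereas the miR-351-5p values change from 0.066 to -0.52 and from -0.41 to 0.016.

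Both arms of a hairpin come from the same precursor, and their ratio within a library needs no scaling between libraries. miR-322 gave more 3p than 5p reads in every library, with a log2 ratio of 3p to 5p of 2.81 to 4.44. miR-351 gave fewer 3p than 5p reads in every library, with a log2 ratio of -7.13 to -5.17. The ratios of the hairpins did not overlap in any region.

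In the cerebellum, the log2 ratio of miR-351 was -5.72 ± 0.365 in sham (SD, n = 4) and -6.68 ± 0.319 in HIBI, or 0.0190 and 0.00976 reads of 3p for each read of 5p. The HIBI libraries lay between -7.04 and -6.28 and the sham libraries between -5.96 and -5.19, with no overlap. The difference of -0.96 is a description, since miR-351-3p was selected there. The log2 ratio of miR-322 was 3.81 ± 0.370 in sham and 3.48 ± 0.437 in HIBI, with overlap.

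In the other regions neither hairpin had a different ratio in HIBI by the two-sided exact permutation test, for which the smallest possible p with 4 against 4 pups is 0.0286. For miR-351 the difference was -0.0036 in the striatum/thalamus (exact p = 0.971) and 0.38 in the cortex (exact p = 0.286). For miR-322 it was -0.00016 in the striatum/thalamus (exact p = 1) and -0.12 in the cortex (exact p = 0.629). After adjustment over the 10 tests of arm ratios these 4 p-values were 0.571 to 1.

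Between regions, the miR-351 ratio was lower in the cortex than in the striatum/thalamus in 7 of 8 pups, with a mean paired log2 difference of -0.70 ± 0.547 (SD, n = 8, exact permutation p = 0.0156, adjusted p = 0.156). The miR-322 ratio was lower in the cortex than in the cerebellum in 6 of 8 pups, at -0.46 ± 0.491 (exact permutation p = 0.0391, adjusted p = 0.182), and lower in the cortex than in the striatum/thalamus in 6 of 8 pups, at -0.54 ± 0.637 (exact permutation p = 0.0547, adjusted p = 0.182). None of the region differences in arm ratio passed after adjustment. The arms of a hairpin differ in GC content (66.7% and 62.5% for miR-351, 47.6% and 40.9% for miR-322). In the fit with the GC trend removed, cortex minus striatum/thalamus went from 0.67 to 0.34 for miR-322-5p and from 0.052 to 0.0079 for miR-322-3p, and from -1.07 to -0.51 for miR-351-3p and from -0.41 to 0.016 for miR-351-5p. The part of base composition in the arm ratios was not tested.

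**Figure D4:**
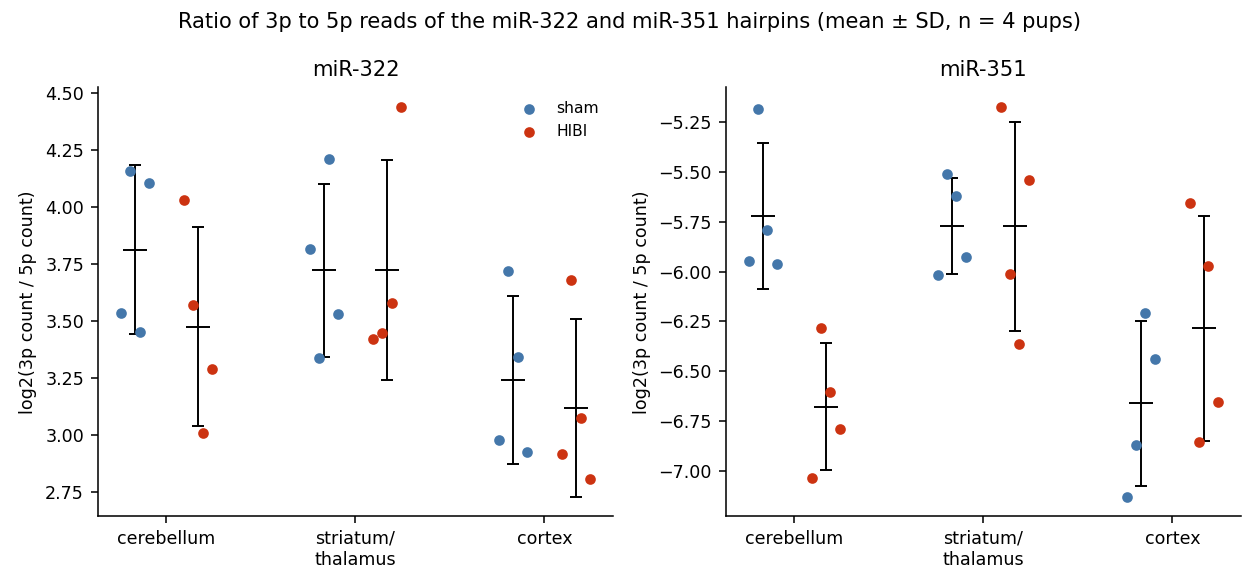
Log2 ratio of 3p to 5p reads of the miR-322 hairpin and the miR-351 hairpin in each library (y axis, pseudocount 0.5), by region and injury, with the mean ± SD of 4 pups. The miR-351 ratio averages -5.72 in sham and -6.68 in HIBI in the cerebellum, and -5.77 in both groups in the striatum/thalamus.

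Whether the members followed miR-351-3p from pup to pup was asked in the 2 regions that the selection did not use. In the striatum/thalamus, miR-351-5p was higher where miR-351-3p was higher, with Pearson's r = 0.71 over 8 pups (exact permutation p = 0.0517, adjusted p = 0.207 over 12 correlations) and Spearman's rho = 0.83 (exact permutation p = 0.0154, adjusted p = 0.185). Without the 2 pups farthest from the median of miR-351-3p, r was 0.41. miR-322-5p ran the other way, with r = -0.87 (exact permutation p = 0.00756, adjusted p = 0.0908) and rho = -0.74 (exact permutation p = 0.0458, adjusted p = 0.275). Without the 2 farthest pups, r was -0.89. miR-542-3p had r = 0.71 (exact permutation p = 0.0446, adjusted p = 0.207) and rho = 0.67 (exact permutation p = 0.0786, adjusted p = 0.314), with r = 0.79 without those pups, but 4 of its 8 values were 0. No correlation passed after adjustment.

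The other relations were weaker. In the striatum/thalamus r was -0.52 for miR-322-3p (rho = -0.50), -0.20 for miR-503-5p (rho = -0.29), and -0.034 for miR-450a-5p (rho = 0.14), with exact permutation p-values of 0.189 to 0.951 for r and 0.216 to 0.752 for rho. In the cortex r ranged from -0.22 for miR-503-5p to 0.35 for miR-450a-5p, and was 0.25 for miR-351-5p (rho = -0.048), with exact permutation p-values of 0.377 to 0.918 for r and 0.299 to 1 for rho, and adjusted values of at least 0.718. Without the 2 farthest pups, the cortical r of miR-351-5p was -0.64, so the sign of that relation rested on those pups.

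**Figure D5:**
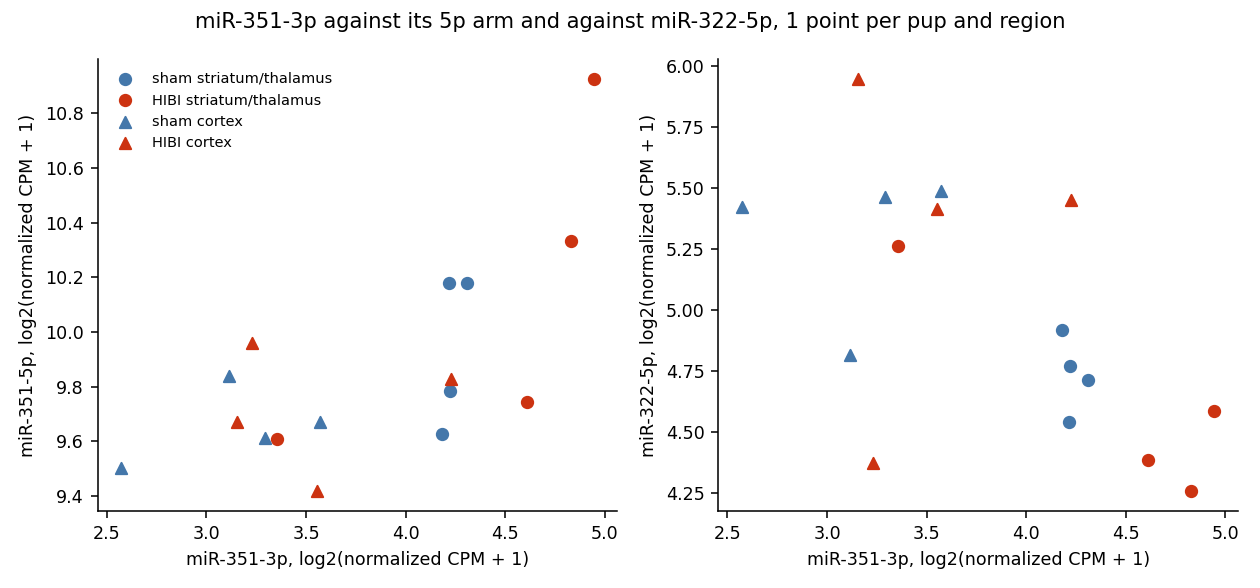
miR-351-5p (left) and miR-322-5p (right) against miR-351-3p, each as log2(TMM-normalized CPM + 1), 1 point per pup and region, with circles for the striatum/thalamus and triangles for the cortex. In the striatum/thalamus r is 0.71 for miR-351-5p and -0.87 for miR-322-5p, and in the cortex 0.25 and 0.12.

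Over all 24 libraries, with the mean of each of the 6 groups removed, the members fell into more than 1 pattern. miR-322-5p and miR-322-3p varied together (r = 0.63), as did miR-322-3p and miR-450a-5p (r = 0.64) and the arms of miR-351 (r = 0.50). The miR-351 arms ran against miR-322-5p (r = -0.55 for miR-351-5p and -0.41 for miR-351-3p). miR-351-3p had r = -0.37 with miR-322-3p, -0.27 with miR-503-5p, -0.25 with miR-450a-5p, and 0.17 with miR-542-3p. These are descriptions over libraries that share pups and scaling. After the GC correction, the values were 0.38, 0.45, and 0.20 for the first 3 pairs, and -0.14 and 0.023 for miR-322-5p with the miR-351 arms, so that the opposing values were nearer 0 once the GC trend was removed. In the striatum/thalamus alone, r of miR-351-3p with miR-322-5p was -0.48 and with miR-351-5p 0.46 after that correction. In the cortex, r of miR-351-3p with miR-351-5p was -0.93 after it.

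The other mature miRNAs of these hairpins were scarce. miR-450b-3p averaged 12.2 CPM, with 695 reads in all, but it shares 18 consecutive bases with miR-450a-1-3p (41 reads), so the assignment of reads between them is uncertain. miR-503-3p had 302 reads, miR-542-5p 271, and miR-450b-5p 8, and miR-450a-2-3p was not analysed here. miR-450b-3p, which passed the filter, did not meet the criteria for HIBI in the striatum/thalamus (log2 fold change -0.19, SE 0.76) or in the cortex (-0.50, SE 0.50). In the cerebellum its value was 0.84 (SE 0.60).

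Among miRNAs sharing a member's seed, 0 of 7 tested met the criteria for HIBI in the striatum/thalamus or in the cortex by edgeR. Of all miRNAs tested, 2.75% and 3.41% met them in these regions. miR-16-5p was at -0.62 (SE 0.37) in the striatum/thalamus. In the cerebellum, miR-125a-5p, which has the seed of miR-351-5p, was at -0.72 (SE 0.23), and miR-125b-5p was at -0.11 (SE 0.20), close to miR-351-5p itself at -0.12. miR-125a-5p met the criteria there, as did 7.83% of the 434 miRNAs in the fit.

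The 3 miRNAs outside the cluster whose level over the 24 libraries was most like that of miR-351-3p were miR-486b-5p (r = 0.88), miR-486a-5p (r = 0.87), and miR-125a-5p (r = 0.87), among 429 miRNAs with a median r of -0.031. miR-486a-5p and miR-486b-5p have almost the same sequence, so their reads cannot be told apart with certainty. miR-486a-5p is known from erythrocytes, as is miR-451a, which had r = -0.43 with miR-351-3p. These values include the cerebellar libraries that the selection used, and the part of erythrocyte miRNAs in them was not tested. For the mean standardized level of the 5 members above 10 CPM, the most alike were miR-448-3p (r = 0.78), miR-10b-5p (0.78), miR-219b-5p (0.75), miR-199a-3p (0.75), and miR-155-5p (0.73). The members themselves had r of 0.23 to 0.63 with that mean, lowest for miR-351-3p, so the mean does not stand for any single member.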

How the data were processed

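miRNA-Seq libraries had been prepared from 200 ng of RNA with the NEXTFLEX Small RNA kit. Alignment by the authors was with bowtie2, against the mouse mature sequences in miRBase, and they deposited raw read counts per mature miRNA and library. Versions, the miRBase release, and the rule for reads matching several miRNAs are not given in the sources used here. The deposited tables also hold the authors' edgeR comparison (log2 fold change, average log2 CPM, p-value, and false discovery rate), which was not used. The 20 castor bean entries (0.000156% of counts) were left out.

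Differences were fitted to the counts by edgeR 4.0.16 (TMM, quasi-likelihood test, average above 10 CPM), with limma 3.58.1 and DESeq2 1.42.0 (R 4.3.3). Exact permutation tests went through all arrangements with numpy 2.4.6. Ranks and the exact interval of the read rates came from scipy 1.17.1. HIBI was compared with sham within each region (fold change above 1.5, unadjusted p-value under 0.05). Regions and the interaction were compared in 1 model of the 24 libraries with Benjamini-Hochberg adjustment over all miRNAs tested. SE values were computed from the log2 fold change and the F statistic. Arm ratios used log2((3p + 0.5)/(5p + 0.5)), and levels in correlations log2(CPM + 1). The GC correction removed a loess trend (span 0.75) on GC content from each library and used miRNAs with a RefSeq sequence (1291 of 1531 matched). Scripts were tested on simulated data.

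The same pup gave the 3 regions, so its number pairs them. The deviations of a pup in 2 regions correlated with a median r of 0.16 to 0.27 (lowest -0.12, highest 0.59). No pair of the 36 replicate pairs agreed within sampling noise. At 10 CPM, 1254185 counts give few reads, and counting error is large.

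Named miRNAs were the 7 members, the other mature miRNAs of the cluster, those sharing a seed, and the 5 and 3 most alike by r. The members and lists were chosen with earlier results of these data known. Alternatives were other scalings, filters, and tests, the pup as a block, sham libraries alone, and leaving out each pup.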

Additional observations from a re-analysis of the deposited data

Results flagged for a closer look

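Of 42 sets of 4 libraries (7 members in 6 groups), 4 held a library far from the other 3 by Dixon's test, where chance gives about 1 in 20. miR-322-5p in the sham cortex was 27.1 CPM in pup 3, against 41.8 to 43.8 CPM in the other pups. miR-322-3p in the sham striatum/thalamus was 490 CPM in pup 6, against 294 to 317 CPM. miR-542-3p in the sham striatum/thalamus was 0.418 CPM, a single read, in pup 3, against 0 in the others. miR-542-3p in the HIBI cortex was 4.92 CPM in pup 4, against 0 to 0.554 CPM. No explanation of these values was tested.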

How the results depend on the processing

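At 1254185 to 3406624 counts per library, members near 10 CPM rested on few reads, and miR-542-3p and miR-450a-5p mostly fell under the filter. Of the comparisons and correlations of single members under the alternatives, 630 kept their direction and their side of the threshold, 61 changed sign, 25 passed it newly, and 21 no longer passed. The arm ratios, counted apart, changed sign in 12 alternatives, all with a pup left out. The cause of these changes was not tested.

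The number of members called in the cerebellum (1) was 2 with no filter, where 106 of all 1315 miRNAs met the criteria. That count is a description, since this contrast chose the cluster. The number in the striatum/thalamus (0) was 1 above 1 CPM (19 of all 740 miRNAs met the criteria) and 1 with no filter (54 of 1265). For cortex minus cerebellum (1), the number was 3 by library size (283 of all 435 miRNAs called) and 2 by RLE (285 of 435). It was 0 with no filter (292 of 1531), 2 by DESeq2 (291 of 435), and 3 in sham libraries alone (274 of 423). The last count uses sham cerebellum libraries that the selection of miR-351-3p used, so it is a description. For striatum/thalamus minus cerebellum (1), the number was 3 by upper quartile (303 of 435), 2 above 1 CPM (374 of 727), and 3 with no filter (376 of 1531). For cortex minus striatum/thalamus (3), the number was 1 in sham libraries alone (163 of 423). With the pup as a replicate block, the first of these region counts was 2 and the second 2 (284 and 318 of all 435 miRNAs). With the GC correction, chosen after seeing the data, the 3 region counts were 3, 2, and 0 (250, 271, and 199 of all 371 miRNAs). With block and GC correction they were 3, 2, and 0 (251, 276, and 207 of 371). No other count of called members was changed by over 1.5 times by the block. Of the correlations with miR-351-3p (0 passing), 1 passed by library size.

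Signs changed as follows. For HIBI minus sham in the striatum/thalamus, miR-503-5p was 0.0077 by library size, 0.022 in the fit of all 24 libraries, and 0.21 in the permutation test. With the GC correction, miR-351-5p was -0.035 and miR-351-3p -0.051 there, and miR-351-5p -0.093 in the cortex. miR-322-5p in the cortex was -0.0011 in the permutation test. For striatum/thalamus minus cerebellum, miR-322-5p was 0.055 with GC correction and 0.090 with block and GC correction. miR-351-5p was -0.013 by upper quartile, -0.044 with no filter, -0.52 with GC correction, -0.53 with block and GC correction, and -0.083 in sham libraries. miR-351-3p was -0.30, -0.32, and -0.21 in the last 3 of these, the sham value being a description because of the selection. For cortex minus striatum/thalamus, miR-322-3p was -0.029 in sham libraries, and miR-351-5p 0.016 with GC correction and 0.028 with block and GC correction. The cortex minus striatum/thalamus difference in HIBI effect of miR-322-3p was 0.020 by upper quartile, 0.029 with GC correction, and 0.047 with block and GC correction. The cortical r of miR-322-3p with miR-351-3p was -0.0097 by library size.

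With each pup left out in turn, 1 to 2 members were called in the cerebellum, a description because of the selection. The count was 2 without pup 1, adding miR-322-5p at 0.91 (62 of all 430 miRNAs met the criteria). It was also 2 without pup 4, adding miR-450a-5p at 1.68 (43 of 435). For cortex minus cerebellum the members called were 0 to 3 (0 without pup 3, 3 without pup 1, and 2 without pup 4, 5, or 6). For striatum/thalamus minus cerebellum they were 1 to 2 (2 without pup 1, 3, 4, or 6). For cortex minus striatum/thalamus they were 1 to 3 (1 without pup 2, 6, 7, or 8). Of all 430 to 439 miRNAs tested, 252 to 283, 285 to 307, and 196 to 229 were called in these 3 comparisons. The correlations passing were 0 to 1 (1 without pup 4, miR-322-5p at -0.94).

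Values that changed sign had these ranges. HIBI minus sham in the striatum/thalamus ran from -0.45 to 0.052 for miR-322-5p, -0.37 to 0.13 for miR-322-3p, -0.38 to 0.32 for miR-503-5p, and -0.023 to 0.41 for miR-351-5p. HIBI minus sham in the cortex ran from -0.17 to 0.28 for miR-322-5p, -0.22 to 0.0028 for miR-322-3p, and -0.039 to 0.18 for miR-351-5p. Cortex minus cerebellum ran from -0.048 to 0.28 for miR-322-5p. Striatum/thalamus minus cerebellum ran from -0.097 to 0.20 for miR-351-5p. Cortex minus striatum/thalamus ran from -0.039 to 0.13 for miR-322-3p. The difference in HIBI effect ran from -0.23 to 0.42 for miR-322-5p, -0.12 to 0.14 for miR-322-3p, -0.34 to 0.025 for miR-351-5p, and -0.13 to 0.39 for miR-351-3p. The arm ratio of HIBI minus sham in the striatum/thalamus ran from -0.24 to 0.16 for miR-322, and -0.20 to 0.19 for miR-351. The arm ratio of HIBI minus sham in the cortex ran from -0.31 to 0.037 for miR-322. The arm ratio of striatum/thalamus minus cerebellum ran from -0.075 to 0.21 for miR-322. Pearson's r with miR-351-3p in the striatum/thalamus ran from -0.32 to 0.65 for miR-450a-5p, and -0.59 to 0.072 for miR-503-5p. Pearson's r with miR-351-3p in the cortex ran from -0.49 to 0.29 for miR-503-5p, -0.084 to 0.27 for miR-322-3p, and -0.037 to 0.45 for miR-351-5p.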
